A study of Mus musculus with 17 samples.

Results

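The cell cycle and DNA replication genes studied here were 60 genes, chosen by symbol, and all 60 were present among the 55357 genes of the deposited tables, each under 1 gene ID. By role they were 14 cyclins, cyclin-dependent kinases and kinase inhibitors, 3 transcription factors, 19 genes of DNA replication and nucleotide supply, the 2 subunits of the histone chaperone FACT, 5 genes of chromosome condensation, 12 of mitotic kinases, checkpoint and kinetochore, 4 of the mitotic spindle and cytokinesis, and Ccnb1ip1, a ligase known from meiotic crossing over. All 60 also passed the filter on low counts, which kept 22784 genes. The RNA came from β cells of male mice, sorted by FACS as tdTomato+ cells after their islets had been cultured for 72 h in low glucose (2.8 mM) or high glucose (16.7 mM). Control cells, called WT in the labels, gave 3 samples in low and 4 in high glucose, and Pcbp2 βKO cells gave 5 samples in each. Per the study's methods, the control mice also carried RIP-Cre and the Rosa26 tdTomato reporter, so that both genotypes expressed Cre from an insulin promoter, and the knockout mice carried 2 floxed Pcbp2 alleles besides (RIPCre+;Pcbp2Fl/Fl;Tdtomato in the labels). Cre under an insulin promoter recombines in β cells, and the sort keeps cells that have recombined the reporter. Neither the labels nor the methods say whether a sample is 1 mouse or a pool, and p values here therefore measure the spread between samples.

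A dividing cell passes through 4 phases. Mitogens raise the D-type cyclins, which with the kinases CDK4 and CDK6 phosphorylate the retinoblastoma protein and so release the E2F factors. E2F1 and its relatives turn on the genes of S phase, among them cyclin E, the MCM helicase subunits and the enzymes that make deoxynucleotides, and later FoxM1 and the B-Myb complex turn on the genes of mitosis such as cyclin B, Plk1 and the kinetochore proteins. The inhibitors p21 (Cdkn1a), p27 (Cdkn1b) and p18 (Cdkn2c) hold the kinases back. Adult β cells divide rarely, and glucose is a known mitogen for them in the mouse.

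Each sample held between 47385513 and 82419400 estimated counts. Levels are given as CPM, the counts per gene relative to the library total and corrected by TMM, a factor that allows for a few very abundant mRNAs taking a large share of a library. This matters here since the summed CPM of 10 β cell markers, among them Ins1, Ins2 and Iapp, was 119043 to 123222 in control cells in low glucose and 272015 to 526064 in high glucose. Pcbp2 stood at 35.0, 45.4, 44.4 and 36.7 CPM in the 4 control samples in high glucose and at 10.03, 5.81, 6.39, 8.48 and 7.61 CPM in the 5 knockout samples, and all samples matched their labelled genotype in this respect. Markers of other cells were low in the sorted cells for endothelial (summed CPM of 6 genes at most 1.55) and stellate cells (7 genes, at most 5.31), and higher for alpha cells (6 genes, 650.2 to 9469), PP cells (2 genes, 368 to 7425), delta cells (3 genes, 147 to 1316) and macrophages (7 genes, 21.4 to 189). In low glucose the median sums were 1451 in control and 5449 in Pcbp2 βKO cells for alpha, 1163 and 2351 for PP and 383 and 829 for delta cell markers, of which none was called between the genotypes there. Ductal markers (4 genes) reached 800.4 in 1 control group and acinar markers (8 genes) at most 23.7. On the first principal component of 22723 genes other than the members and Pcbp2, which held 32.3% of the variance, control replicate 4 (10.8) and Pcbp2 βKO replicates 4 and 5 (14.4 and 14.2) lay between the other high-glucose samples (76.7 to 87.8) and the low-glucose samples (-88.8 to -35.4), and some counts are also given without these 3 samples.

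In low glucose the members covered a wide range of levels. Per transcript length (TPM), cyclin D2, the main D-type cyclin of the mouse β cell, was the highest in control cells at 359 ± 64.2 TPM (SD, n = 3), followed by Cdk4 at 198 ± 17.2, Cdkn1a at 129.98 ± 1.24, Ssrp1, the smaller FACT subunit, at 83.0 ± 8.18 and Pcna, the sliding clamp of the replication fork, at 45.3 ± 4.38 TPM. Of the Ccnd2 level, 247 ± 49.2 TPM came from the 627-base transcript Ccnd2-206 and 86.0 ± 10.2 TPM from the 6330-base Ccnd2-201. Its first rank thus rested on the shorter transcript. Cyclin D3 stood at 34.5 ± 4.34 and cyclin D1 at 4.04 ± 1.45 TPM. The level fell from Ccnd2 over Ccnd3 to Ccnd1 in steps wider than the SD of each. The proliferation marker Mki67 was at 0.0524 ± 0.0249 TPM and the mitotic kinase Bub1 at 0.0629 ± 0.0372 TPM. For Bub1 the 8 low-glucose samples held between 0 and 22 estimated counts each.

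**Figure D1:**
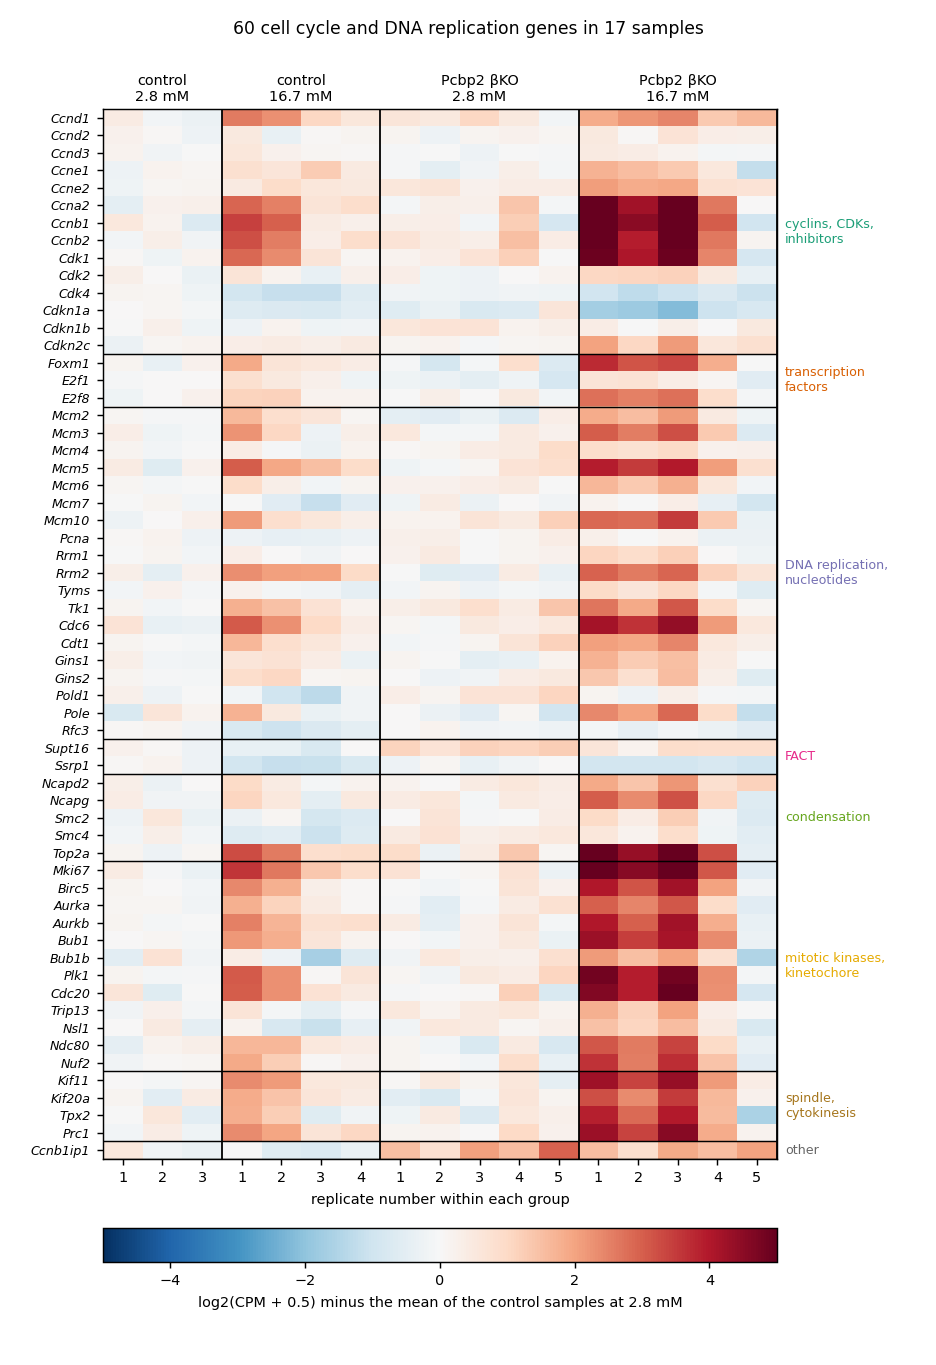
Level of the 60 members (rows, by role) in each of the 17 samples (columns), as log2(CPM + 0.5) minus the mean of the 3 control samples at 2.8 mM, with colours saturating at 5. Red blocks in high glucose mark the mitotic and S phase genes, which are darkest in Pcbp2 βKO replicates 1 to 3 and near or below the low-glucose level in replicate 5.

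High glucose was compared with low glucose in control cells to ask which members respond to glucose when Pcbp2 is intact. Of the 60 members, 4 were called higher and 3 lower (edgeR quasi-likelihood test over all 22784 genes, adjusted p under 0.05 and a change above 1.5-fold). Over all genes, 7.15% were called higher and 6.69% lower. Same-numbered control samples were taken as pairs, so a fit with the replicate number as a block is given beside it. That block was fitted over all 17 samples, Pcbp2 βKO samples included, and was thus not a paired fit of the control samples alone. It called 13 members higher and 4 lower (10.2% and 10.7% of all genes), among them Mki67, Top2a, Cdc6, Bub1, Kif11 and Aurkb. Within the control cells alone the same block called 31 higher and 6 lower, against 13.9% and 14.7% of the 19826 genes tested there. Control replicate 4 has no partner in low glucose, so in that fit it did not bear on the glucose effect. It is 1 of the 3 samples that stood apart on the principal component. Few samples were left there to estimate the spread, and the larger count cannot be credited to the pairing alone. Without the block, the median log2 fold change of the members was 0.91, against 0.038 for all genes tested. The 4 that rose in that fit were Ccnd1, the B-type cyclin Ccnb2, the helicase subunit Mcm5 and Rrm2, the regulated subunit of ribonucleotide reductase. The 3 that fell were Cdk4, Ssrp1 and Rfc3, a subunit of the clamp loader.

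Ccnd1 stood at 16.7, 11.4 and 10.1 CPM in the 3 control samples in low glucose and at 78.4, 62.0, 25.7 and 18.8 CPM in the 4 in high glucose. The groups did not overlap, and replicates 1 and 2 were the highest (log2 fold change 1.86, standard error 0.42, adjusted p = 0.00706). Rrm2 was at 3.56, 1.86 and 3.33 CPM in low and 16.2, 13.3, 12.9 and 5.98 CPM in high glucose, again without overlap (log2 fold change 2.05, standard error 0.53, adjusted p = 0.0137). Mcm5 was at 2.65, 1.07 and 2.25 CPM in low and 19.0, 8.66, 6.25 and 3.99 CPM in high glucose (log2 fold change 2.24, standard error 0.67, adjusted p = 0.0295). For Ccnb2, at 0.104, 0.296 and 0.0875 CPM in low and 5.58, 3.33, 0.319 and 0.704 CPM in high glucose, the lowest high-glucose sample lay just above the low-glucose range (log2 fold change 3.93, standard error 1.22, adjusted p = 0.0358). The calls of Ccnb2 and Mcm5 were lost when any of 5 of the 7 samples was left out, while Ccnd1 kept its call in each of these 7 fits. Scaling moved the split of calls, which was 4 higher and 9 lower by total counts (3.43% and 17.8% of all genes) and 0 higher and 13 lower by limma on log2(TPM + 1) (1.1% and 29.5%), 2 scales on which the median of all genes was shifted by -0.35 and -0.24.

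Cdk4, the catalytic partner of the D-type cyclins, was at 324, 316 and 259 CPM in low and 159, 135, 135 and 189 CPM in high glucose (log2 fold change -0.96, standard error 0.14, adjusted p = 0.000655). Ssrp1 was at 223, 239 and 179.7 CPM in low and 113, 94.3, 97.2 and 124 CPM in high glucose (log2 fold change -1.001, standard error 0.14, adjusted p = 0.000477). Rfc3 was at 18.6, 20.1 and 15.8 CPM in low and 10.47, 8.51, 10.8 and 12.9 CPM in high glucose (log2 fold change -0.77, standard error 0.17, adjusted p = 0.00597). In all 3 every high-glucose sample lay below every low-glucose sample, and the calls were made in all 19 alternative fits of this comparison, those that left out 1 sample included.

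Of the 16 mitotic and spindle members, 14 were higher in control replicates 1 and 2 than in replicates 3 and 4 in high glucose, the others being Trip13 and Nsl1. Mki67 was at 0.914, 0.503 and 0.328 CPM in low glucose and 12.2, 6.15, 2.22 and 1.47 CPM in high glucose, with no overlap. Top2a, the topoisomerase that untangles chromosomes, was at 1.65, 1.15 and 1.55 CPM in low and 18.1, 11.4, 2.96 and 3.14 CPM in high glucose. Cdk1, the kinase that starts mitosis, was at 0.891, 0.657 and 1.02 CPM in low and 9.37, 6.395, 1.58 and 0.953 CPM in high glucose. Replicates 1 and 2 exceeded replicates 3 and 4 in all of these, as in 42 of the 60 members (17.6% of all genes), and the estimates did not pass the test over all genes (adjusted p = 0.0523 for Mki67, 0.0717 for Top2a and 0.125 for Cdk1). In 21 of the 60 members every high-glucose control sample lay above every low-glucose one, against 11.8% of all genes. With the block Mki67 and Top2a were called, as given above. Without the 3 samples that stood apart on the principal component, left out after the values were seen, 29 members were called higher and 4 lower, against 10.2% and 11.8% of all genes. Without control replicate 4 alone 10 were called higher and 3 lower (9.78% and 9.98% of all genes), and without replicate 2 of the low-glucose samples 1 and 3 (2.88% and 2.9%).

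In Pcbp2 βKO cells the same comparison gave a broad response, with 39 members called higher and 3 lower, against 13.4% and 10.4% of all genes. The median log2 fold change of the members was 1.57, and 0.012 over all genes. By total counts 33 were called higher and 9 lower (6.5% and 28% of all genes), and by limma on log2(TPM + 1) 20 and 15 (1.51% and 37.2%), with the median of all genes at -0.47 and -0.33 on these scales. All 12 mitotic kinases, checkpoint and kinetochore genes had estimates above 0, from 0.84 to 5.30, and 9 were called higher. All 4 genes of the spindle and cytokinesis and all 3 transcription factors were called higher, and so were 11 of 19 replication genes, 9 of 14 in the group of cyclins, kinases and inhibitors, and 3 of 5 condensation genes. In 5 members every high-glucose sample lay above every low-glucose one, against 10.9% of all genes. The 4 members that rose in control cells also rose here, and Cdk4 and Ssrp1 fell in both genotypes. The 2 comparisons share no sample. Markers of other cells moved in the same comparison. Of 7 macrophage markers, 6 fell and 1 (C1qa) rose, both PP markers and 2 of 3 delta markers fell, and of 6 alpha markers 2 fell and 2 rose. In control cells 1 macrophage and 1 delta marker fell and 2 alpha markers rose. Their part in the members' values was not tested. In sorted bulk cells, a larger share of dividing cells and more transcript per dividing cell cannot be told apart.

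Among the mitotic genes, Mki67, a marker of cycling cells, stood at 1.24, 0.551, 0.636, 1.25 and 0.360 CPM in Pcbp2 βKO replicates 1 to 5 in low glucose and at 32.9, 23.9, 54.2, 8.48 and 0.218 CPM in replicates 1 to 5 in high glucose (log2 fold change 4.90, standard error 0.93, adjusted p = 0.000672). The first 4 replicates in high glucose lay above all 5 in low glucose, and replicate 5 lay below them. Bub1, a kinase of the spindle checkpoint, had the highest log2 fold change, with 0.134, 0.0704, 0.233, 0.382 and 0 CPM in low and 11.8, 6.39, 10.4, 2.79 and 0.0128 CPM in high glucose (log2 fold change 5.30, standard error 1.097, adjusted p = 0.00137). Plk1, which drives entry into mitosis, was at 24.2, 13.0, 24.5, 3.91 and 0.334 CPM in high glucose and between 0.293 and 1.34 CPM in low glucose (log2 fold change 4.24, standard error 0.89, adjusted p = 0.00146).

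The same order of samples recurred in the rest of this group. Cdc20, the activator of the anaphase-promoting complex, was at 38.6, 23.6, 51.5, 7.22 and 0.373 CPM in high glucose against 0.429 to 3.12 CPM in low. Aurka, the Aurora kinase of the spindle poles, was at 24.9, 17.2, 27.1, 5.57 and 1.67 CPM against 1.75 to 4.92 CPM in low glucose. Aurkb, that of the centromere, was at 11.6, 5.46, 13.1, 2.16 and 0.0771 CPM against 0.0469 to 0.676 CPM. In all 3 the groups overlapped through replicate 5 alone. Birc5 (survivin), which works with Aurkb, was at 18.7, 9.94, 21.4, 4.31 and 0.552 CPM against 0.587 to 1.34. Ndc80, which holds the spindle microtubules at the kinetochore, was at 9.70, 6.598, 11.8, 1.80 and 0.424 CPM against 0.1798 to 1.11 CPM (3.41 on the log2 scale). Nuf2, its partner, was at 13.3, 6.004, 13.9, 2.46 and 0.257 CPM against 0.370 to 1.56 CPM (3.25). The checkpoint genes Bub1b and Trip13 and the kinetochore gene Nsl1 had log2 fold changes of 1.14, 1.13 and 0.84 and were not called (adjusted p = 0.136, 0.0615 and 0.17).

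Of the spindle genes, Kif11, the motor that separates the poles, was at 19.4, 10.51, 21.2, 4.05 and 0.848 CPM in high glucose and between 0.260 and 1.06 CPM in low (log2 fold change 3.98, standard error 0.71, adjusted p = 0.00039). Prc1, which bundles microtubules at the midzone, was at 45.5, 24.6, 55.8, 8.20 and 2.20 CPM against 1.91 to 4.20 CPM. Kif20a, a motor of cytokinesis, was at 22.7, 12.3, 27.5, 7.03 and 2.34 CPM against 0.962 to 3.30 CPM. All 4, with the spindle assembly factor Tpx2 at 30.9, 14.4, 32.5, 5.84 and 0.206 CPM against 0.806 to 2.55 CPM, were called, with log2 fold changes of 2.93 to 3.98. Of the condensation genes, Top2a was at 3.19, 1.103, 2.05, 4.49 and 1.60 CPM in low and 67.6, 39.5, 89.0, 17.7 and 0.938 CPM in high glucose (log2 fold change 4.12, standard error 0.81, adjusted p = 0.000894). Ncapg, a condensin I subunit, was at 12.2, 7.61, 13.8, 2.71 and 0.501 CPM in high glucose against 0.975 to 1.83 CPM in low (2.31 on the log2 scale). Ncapd2, of the same complex, was at 23.9, 16.9, 30.2, 11.1 and 14.0 CPM against 6.15 to 9.19 CPM (1.32), without overlap. Smc2 and Smc4, the core subunits shared by both condensins, were not called (0.31 and -0.23), and they were already at 10.1 to 16.8 and 27.9 to 37.1 CPM in low glucose.

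**Figure D2:**
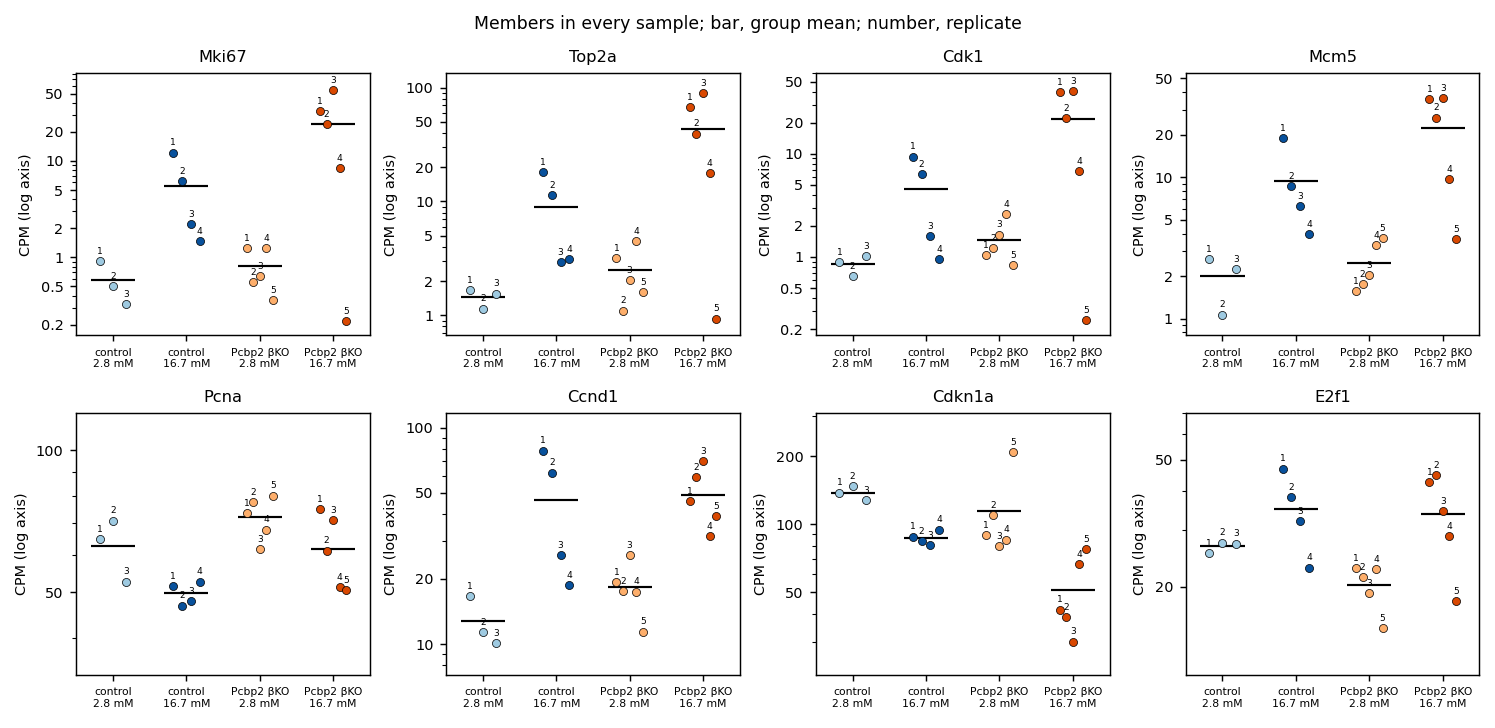
CPM (log axis) of 8 members in each sample, by group, with the replicate number at each point and a bar at the group mean. In high glucose Pcbp2 βKO replicates 1 to 3 lie highest for Mki67, Top2a, Cdk1 and Mcm5 and lowest for Cdkn1a, while replicate 5 lies below every low-glucose sample for Mki67, Top2a and Cdk1.

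Of the 6 subunits of the MCM2-7 helicase, 4 were called higher. Mcm5 was at 1.56, 1.75, 2.05, 3.31 and 3.74 CPM in low and 35.9, 26.5, 36.3, 9.75 and 3.67 CPM in high glucose (log2 fold change 3.18, standard error 0.56, adjusted p = 0.000352), and Mcm3 at 23.6, 16.98, 27.0, 6.86 and 1.32 CPM in high against 2.25 to 3.76 CPM in low (2.37). Mcm2 was at 9.72, 9.27, 11.04, 8.59 and 17.7 CPM in low and 52.2, 42.0, 62.2, 19.3 and 12.1 CPM in high glucose (log2 fold change 1.74, standard error 0.37, adjusted p = 0.00177). Mcm6, at 50.7, 40.1, 55.3, 23.9 and 14.4 CPM against 15.7 to 22.0 CPM, had a log2 fold change of 0.96 that turned to -0.18 on the log2(TPM + 1) scale. Mcm4 and Mcm7 were not called (0.23 and -0.07) and stood at 16.4 to 29.9 and 22.2 to 36.1 CPM in low glucose, so that the 6 subunits of this complex did not all pass the test.

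Cdc6, which loads the helicase, was at 0.223, 0.129, 0.445, 0.347 and 0.469 CPM in low and 11.51, 7.63, 13.6, 2.40 and 0.463 CPM in high glucose (log2 fold change 4.45, standard error 0.94, adjusted p = 0.00161). Cdt1, its partner, was at 5.90, 5.36, 7.84, 1.74 and 1.41 CPM against 0.894 to 2.91 CPM in low glucose (1.505). Mcm10, which takes part in firing, was at 4.41, 4.16, 7.22, 1.17 and 0.0385 CPM against 0.258 to 1.07 CPM (2.70). All 3 passed the test, as did Gins1, of the GINS complex that travels with the helicase, at 2.00, 1.27, 1.60, 0.482 and 0.231 CPM against 0.0318 to 0.340 CPM (2.48). Its fellow subunit Gins2 did not pass (0.79, adjusted p = 0.0812). Pole, the catalytic subunit of the leading-strand polymerase, was at 7.31, 5.38, 10.1, 2.25 and 0.141 CPM in high glucose against 0.2497 to 1.06 CPM in low (log2 fold change 2.86, standard error 0.78, adjusted p = 0.00904), while Pold1, of the lagging-strand polymerase, had an estimate of the other sign (-0.61, adjusted p = 0.0546). Pcna was at 73.5, 77.5, 61.7, 67.9 and 80.1 CPM in low and 75.1, 61.3, 71.2, 51.4 and 50.5 CPM in high glucose (log2 fold change -0.22, standard error 0.13, adjusted p = 0.209), and the groups overlapped. Rfc3 was likewise not called in these cells (-0.24).

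Of the enzymes of nucleotide supply, Rrm2 was at 2.79, 1.71, 1.76, 3.95 and 2.07 CPM in low and 25.1, 19.7, 24.5, 6.86 and 4.73 CPM in high glucose (log2 fold change 2.72, standard error 0.43, adjusted p = 0.000166), with every high-glucose sample above every low-glucose one. Tk1, thymidine kinase, was at 6.96, 3.79, 9.55, 1.71 and 0.758 CPM against 0.938 to 2.56 CPM (1.64), and lost its call under 10 of the alternatives. Rrm1, the other subunit of ribonucleotide reductase, was at 73.7, 65.0, 80.6, 35.1 and 30.0 CPM against 33.8 to 47.5 CPM and was not called (0.50, adjusted p = 0.0932). Tyms, thymidylate synthase, was at 27.1, 21.2, 28.9, 12.8 and 8.85 CPM against 11.4 to 15.3 CPM and was not called (0.61, adjusted p = 0.0735).

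Ccnb1, a cyclin of mitosis, was at 1.05, 1.09, 0.647, 2.46 and 0.210 CPM in low and 57.9, 28.7, 53.6, 9.93 and 0.154 CPM in high glucose (log2 fold change 4.80, standard error 1.07, adjusted p = 0.0024). Ccna2, the cyclin of S and G2 phase, was at 45.0, 23.4, 45.5, 7.48 and 0.809 CPM against 0.699 to 2.86 CPM (4.26), and Ccnb2 at 20.9, 9.38, 21.3, 3.54 and 0.218 CPM against 0.307 to 1.37 CPM (4.25). Cdk1, the partner of the A- and B-type cyclins, was at 1.04, 1.21, 1.64, 2.58 and 0.83 CPM in low and 39.7, 22.0, 40.2, 6.78 and 0.244 CPM in high glucose (log2 fold change 3.91, standard error 0.87, adjusted p = 0.00231). The E-type cyclins, which act at the entry into S phase, had smaller log2 fold changes than these. Ccne2 was at 19.7, 16.9, 17.8, 7.62 and 7.11 CPM against 4.95 to 6.86 CPM without overlap (1.22), and Ccne1 at 10.8, 9.31, 7.88, 4.41 and 0.989 CPM against 1.89 to 3.64 CPM (1.32, which turned to -0.071 on the log2(TPM + 0.1) scale). Their partner Cdk2 was at 5.85, 6.004, 6.42, 3.87 and 1.89 CPM against 2.08 to 3.35 CPM (0.86), lost its call under 11 alternatives and turned to -0.075 on the log2(TPM + 1) scale.

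The D-type cyclins differed from each other. Ccnd1 was at 19.3, 17.6, 25.9, 17.5 and 11.4 CPM in low and 45.8, 59.2, 70.0, 31.7 and 39.0 CPM in high glucose (log2 fold change 1.42, standard error 0.34, adjusted p = 0.00351), and here replicate 5 was above all low-glucose samples too. Ccnd2 was at 776, 583, 782, 805 and 744 CPM in low and 988, 729.9, 1127, 889 and 851 CPM in high glucose, and in control cells at 813, 728 and 587 and 991, 548, 725 and 781 CPM, with no call in either genotype (log2 fold changes 0.31 and 0.10). Ccnd3 was at 63.4, 64.0, 54.9, 64.3 and 63.0 CPM in low and 90.1, 84.1, 74.7, 60.5 and 62.4 CPM in high glucose in Pcbp2 βKO cells and at 74.3, 58.8 and 64.5 and 98.3, 75.2, 69.7 and 68.0 CPM in control cells, again with no call (0.26 and 0.24). Cdk4 fell from 266, 255, 249, 261 and 258 CPM to 153, 125, 146, 179 and 142 CPM (log2 fold change -0.79, standard error 0.12, adjusted p = 9.68e-05), and Ssrp1 from 178, 225, 163, 189 and 215 CPM to 112, 111, 112, 122 and 107 CPM (log2 fold change -0.78, standard error 0.12, adjusted p = 8.88e-05).

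The kinase inhibitors moved in different directions. Cdkn1a, which encodes p21, was at 89.7, 109.8, 79.9, 85.4 and 208 CPM in low and 41.8, 38.9, 30.2, 66.7 and 77.7 CPM in high glucose in Pcbp2 βKO cells (log2 fold change -1.17, standard error 0.26, adjusted p = 0.00257), and every high-glucose sample lay below every low-glucose one. In control cells it was at 138, 147 and 128 CPM in low and 88.1, 83.9, 80.5 and 94.5 CPM in high glucose, also without overlap, and was not called (log2 fold change -0.67, standard error 0.31, adjusted p = 0.162), while it was called lower with the replicate block (-0.75, adjusted p = 0.00492). Cdkn2c, which encodes p18, was at 5.35, 5.55, 4.59, 5.20 and 5.40 CPM in low and 21.4, 10.4, 23.0, 7.50 and 8.88 CPM in high glucose (log2 fold change 1.45, standard error 0.26, adjusted p = 0.000494), a direction that turned on the log2(TPM + 1) scale (-0.06). Cdkn1b was at 3.68 to 5.58 CPM in low and 3.21 to 4.72 CPM in high glucose and was not called (-0.28).

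Of the transcription factors, Foxm1, the activator of mitotic genes, was at 0.391, 0.0117, 0.371, 1.18 and 0.0799 CPM in low and 11.9, 7.74, 8.90, 2.76 and 0.437 CPM in high glucose (log2 fold change 4.00, standard error 0.88, adjusted p = 0.0022). E2f8, a repressor that limits E2F targets late in S phase, was at 4.14, 3.45, 4.06, 0.750 and 0.128 CPM against 0.120 to 0.468 CPM (3.30). E2f1 started from a higher level, with 22.9, 21.5, 19.1, 22.7 and 14.8 CPM in low and 42.5, 44.8, 34.4, 28.9 and 18.0003 CPM in high glucose (0.74), and its direction turned on the log2(TPM + 1) scale (-0.29).

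**Figure D3:**
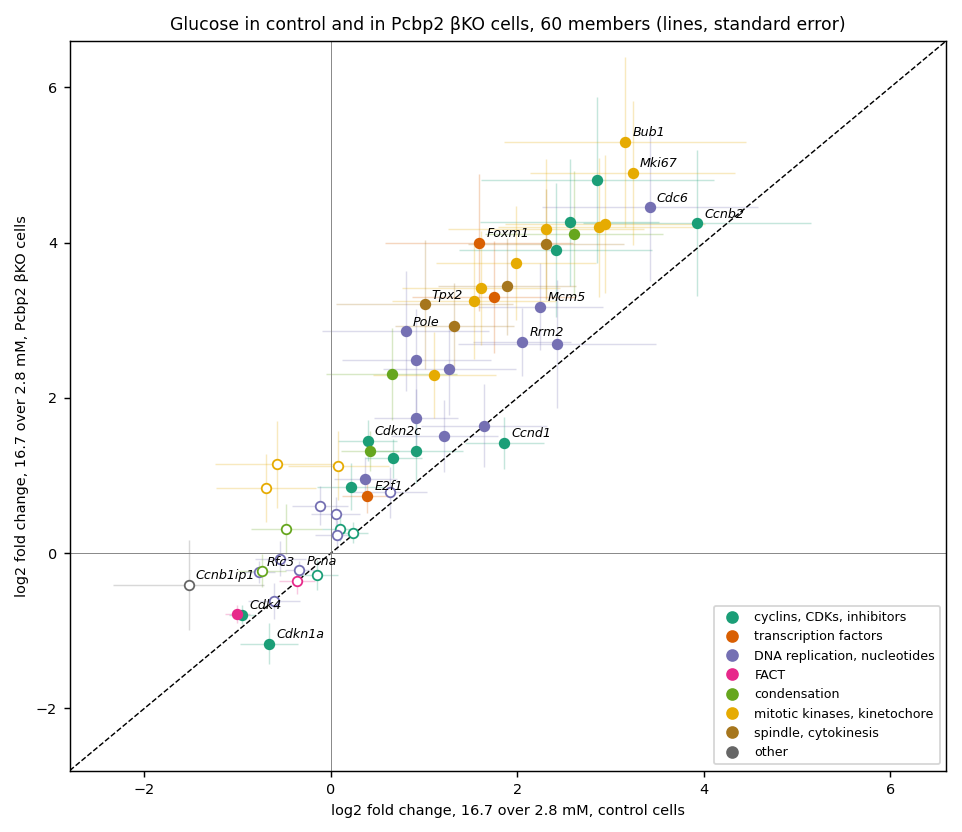
Log2 fold change of high over low glucose for each of the 60 members, control cells on the horizontal and Pcbp2 βKO cells on the vertical axis, with lines for the standard error and filled points where the member was called in Pcbp2 βKO cells. Of the 60 points, 56 lie above the dashed line of equal change, and the mitotic and S phase genes lie farthest to the upper right.

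Genes of these groups are known to carry shared promoter elements, and the windows from 250 bases before to 50 after the annotated start were searched for 3 of them on both strands. These were the cell cycle genes homology region (CHR, TTTGAA), the CCAAT box (CCAAT) and an E2F element in 4 spellings (either TTTGGCGC or else TTTCCCGC, besides these TTTGCCGC and lastly TTTCGCGC). Matches of different elements were counted separately and may overlap at their ends. RefSeq windows (table of build GRCm38.p6) were found for 46 of the 60 members and for 27025 genes in all. A CHR was present in 37.0% of the members' windows and 18.1% of all, a CCAAT box in 60.9% and 37.9%, and an E2F element in 26.1% and 2.32%. CHR and CCAAT box occurred together in 15 members (32.6%) and in 7.12% of all windows. A match describes letters in the window and is not a bound site.

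The elements were spread by role. Of 15 replication genes with a window, 8 had an E2F element and 1 (Mcm2) a CHR, while of 10 mitotic kinase and kinetochore genes 6 had a CHR and none an E2F element. All 4 condensation genes with a window (Ncapd2, Ncapg, Smc2 and Top2a) and both spindle genes (Kif11 and Prc1) had CHR and CCAAT box. Of the 30 members with a window that were called higher with glucose in Pcbp2 βKO cells, 13 had CHR and CCAAT box together, and of the 16 others 2 did (Bub1b and Smc2). Supt16, Ccnb1ip1, Cdkn2c, Cdk4 and Cdkn1a had none of the 3, and neither had Ccnd3, Trip13, Tyms, Birc5, Ccne1, E2f1, Nuf2 and Tk1. Among these, Cdkn2c, Birc5, Ccne1, E2f1, Nuf2 and Tk1 were called higher with glucose in Pcbp2 βKO cells. The windows of 4 members are shown, since they carry the elements of the genes that moved together: Plk1 and Top2a for the mitotic type, Mcm5 for the S phase type and Cdk1 with all 3. They are written 5′ to 3′ on the strand of the gene, with every match in capitals (on the opposite strand TTCAAA for the CHR, ATTGG for the CCAAT box and the reverse complement of the E2F spellings). Their positions are those of an exact match to GRCm39.

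Plk1 (chr7:121758408-121758707, forward strand): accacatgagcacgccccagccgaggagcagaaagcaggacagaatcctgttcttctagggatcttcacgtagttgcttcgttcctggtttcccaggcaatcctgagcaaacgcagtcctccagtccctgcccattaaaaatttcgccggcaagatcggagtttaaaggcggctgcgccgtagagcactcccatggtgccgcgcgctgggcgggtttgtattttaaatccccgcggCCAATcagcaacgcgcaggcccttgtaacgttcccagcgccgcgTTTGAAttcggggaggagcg
Top2a (chr11:98914966-98915265, reverse strand): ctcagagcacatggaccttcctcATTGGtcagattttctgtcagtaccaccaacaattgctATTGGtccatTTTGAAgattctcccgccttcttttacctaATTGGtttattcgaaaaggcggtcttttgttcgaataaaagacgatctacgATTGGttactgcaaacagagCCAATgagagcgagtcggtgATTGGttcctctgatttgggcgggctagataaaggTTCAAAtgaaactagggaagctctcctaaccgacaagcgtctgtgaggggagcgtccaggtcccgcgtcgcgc
Cdk1 (chr10:69188693-69188992, reverse strand): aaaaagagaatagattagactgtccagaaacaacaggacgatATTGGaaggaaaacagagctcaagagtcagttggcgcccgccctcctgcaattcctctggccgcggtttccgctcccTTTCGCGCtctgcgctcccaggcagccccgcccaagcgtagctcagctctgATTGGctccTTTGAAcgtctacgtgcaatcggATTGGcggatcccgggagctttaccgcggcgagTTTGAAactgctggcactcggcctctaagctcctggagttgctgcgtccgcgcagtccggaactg
Mcm5 (chr8:75835887-75836186, forward strand): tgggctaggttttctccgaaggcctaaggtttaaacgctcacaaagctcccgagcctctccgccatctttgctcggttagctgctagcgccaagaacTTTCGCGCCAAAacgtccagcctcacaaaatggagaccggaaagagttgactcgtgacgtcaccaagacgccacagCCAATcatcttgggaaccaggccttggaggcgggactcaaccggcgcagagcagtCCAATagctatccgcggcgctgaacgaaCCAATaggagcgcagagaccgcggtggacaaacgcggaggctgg

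Plk1 had the smallest set, a CCAAT box and a CHR close to the start, and Top2a 6 CCAAT boxes and 2 CHR. In Mcm5 a pair of E2F matches on opposite strands overlap, so that their capitals form 1 run, and 3 CCAAT boxes follow. The log2 fold changes with glucose in Pcbp2 βKO cells were given above as 4.24, 4.12, 3.91 and 3.18 for Plk1, Top2a, Cdk1 and Mcm5.

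The knockout was then compared with control cells in high glucose, where the study looked for effects of losing Pcbp2 on the adaptation to glucose. Of the members, 5 were called higher and none lower, against 0.29% and 1.42% of all genes. The 5 were Supt16, the larger FACT subunit, Ccnb1ip1, the condensin subunits Ncapd2 and Smc4, and Cdkn2c. The study's text and figures name 7 of the 60 members from these samples (Ccnb1ip1, Ccne2, Ncapd2, Supt16, Trip13, Nsl1 and Cdkn1a), which are not independent evidence, and of the 53 others 2 were called. The study's enrichment analysis of gene sets from the same samples reported processes of cellular replication as upregulated in the knockout in high glucose. The median log2 fold change was 1.24, against 0.011 for all genes, and 56 of 60 estimates were above 0. An unadjusted p under 0.05 was reached by 39 members, against 12.1% of all genes.

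The mitotic genes had large estimates with wide errors. The 12 mitotic kinase, checkpoint and kinetochore genes had log2 fold changes of 1.38 to 2.41 and adjusted p of 0.078 to 0.439, and the 4 spindle genes 1.49 to 2.28 and 0.175 to 0.262. For Mki67, the 5 Pcbp2 βKO samples at 32.9, 23.9, 54.2, 8.48 and 0.218 CPM compare with 4 control samples at 12.2, 6.15, 2.22 and 1.47 CPM (log2 fold change 2.12, standard error 0.88, adjusted p = 0.322). Replicates 1 to 3 of the knockout were above all 4 control samples in 48 of the 60 members, including all 16 mitotic and spindle genes, and in 5.93% of all genes. Replicate 5 was below all 4 control samples in 36 members (21% of all genes) and the lowest of the 5 in 48 (23.9%). In 54 members it lay within or below the range of the knockout samples in low glucose, as did 72.5% of all genes. These orders were picked out after the values were seen.

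Sums of cell type markers are given beside this order, which not all of them followed. Summed over the 16 mitotic and spindle members, CPM was 328, 189.7, 389, 72.8 and 11.7 in Pcbp2 βKO replicates 1 to 5 in high glucose and 100.2, 63.6, 22.4 and 23.5 in control replicates 1 to 4. The sum of 7 macrophage markers was 29.6, 21.4, 36.0, 71.4 and 111 CPM in the same knockout samples and 92.8, 38.7, 106 and 81.8 CPM in the controls. Of this C1qa alone made up 27.9, 19.4, 32.4, 55.9 and 101 and 86.1, 36.3, 95.9 and 64.9 CPM, and the other 6 markers together 1.71, 2.07, 3.57, 15.5 and 10.4 and 6.75, 2.46, 10.4 and 16.9 CPM. The sum of 5 lymphocyte markers was 2.41, 2.23, 2.94, 4.26 and 14.4 CPM in the knockout samples. In the controls it was 2.37, 0.908, 1.31 and 5.07 CPM. The sum of the 2 PP cell markers (Ppy and Pyy) was 577, 730.3, 470.3, 1295 and 1456 and 516, 491, 368 and 999 CPM. Alpha cell markers were at 2104, 2439, 1517, 1259 and 1458 and 1581, 1588, 650 and 1633 CPM. Delta cell markers were at 341, 198, 340, 472 and 566 and 244, 147, 214 and 335 CPM. Endothelial markers were near 0, at 1.32, 1.22, 1.23, 1.03 and 1.30 and 1.27, 1.55, 1.48 and 1.496 CPM for 6 genes. The sum of β cell markers was 475307, 406208, 462759, 359038 and 362232 CPM in the knockout samples. In the controls it was 526064, 451552, 371028 and 272015 CPM. The part of these differences in the result was not tested.

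Leaving out samples changed the count most. Without Pcbp2 βKO replicate 5, 19 members were called, all higher (0.544% of all genes higher and 1.19% lower), among them Top2a (2.59, adjusted p = 0.0284), Cdk1 (2.58, adjusted p = 0.0466), Ccna2 (2.64, adjusted p = 0.0428), Ncapg (2.41, adjusted p = 0.00994) and Bub1b (2.32, adjusted p = 0.014). Without the 3 samples named above, 25 were called higher and 1, Cdkn1a, lower (1.06% and 1.57% of all genes). The removal of control replicate 2 or 3, or of Pcbp2 βKO replicate 1 or 3, left 2 members called, and that of control replicate 4 left 3. Supt16 and Ccnb1ip1 were called in each of these fits.

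**Figure D4:**
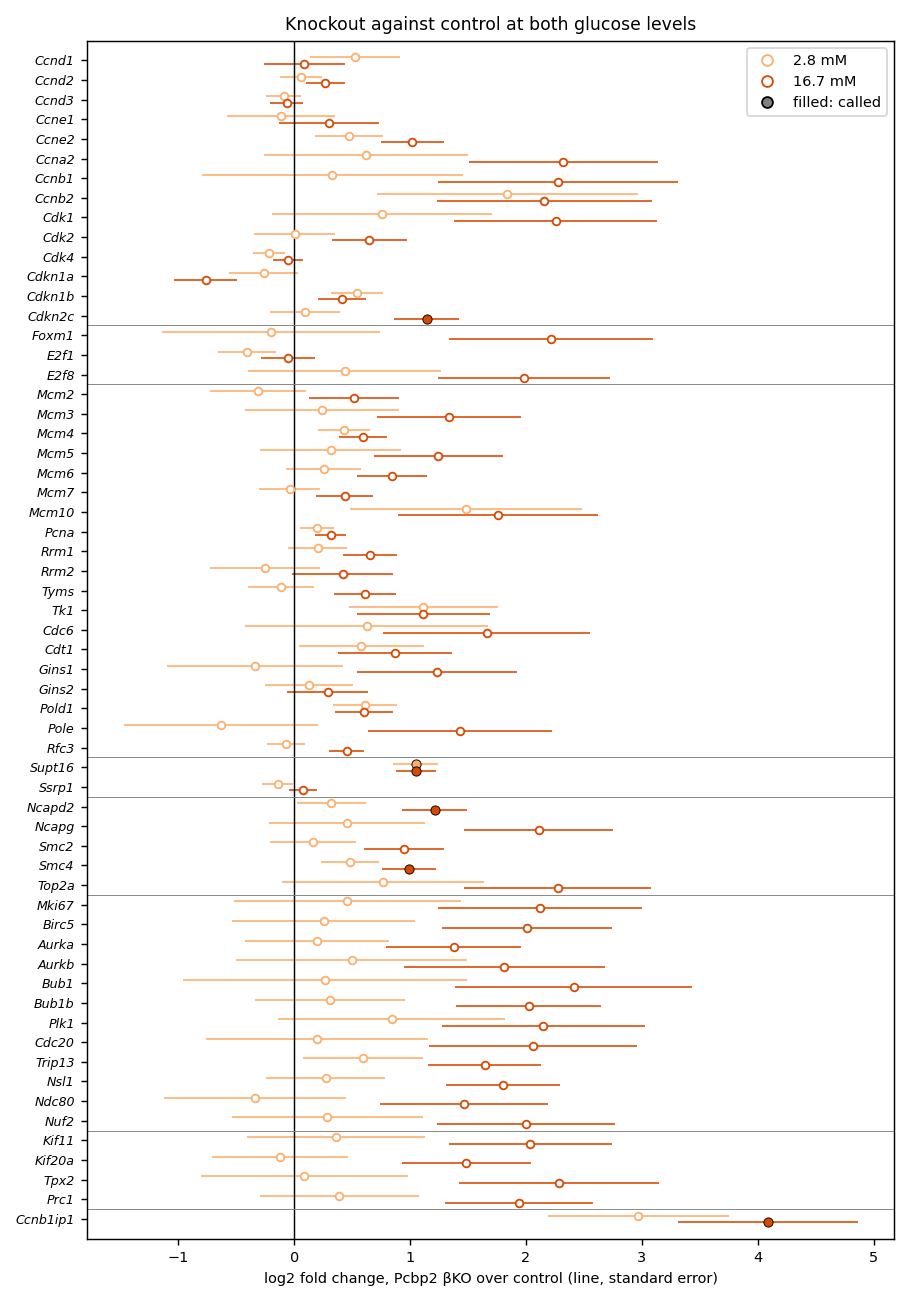
Log2 fold change of Pcbp2 βKO over control for each of the 60 members in low glucose (light) and high glucose (dark), with lines for the standard error and filled points where the member was called. Estimates in high glucose lie to the right of those in low glucose for 56 members, with wide lines for the mitotic genes, and Supt16 is at 1.05 in both.

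Supt16 encodes the subunit of FACT that, with SSRP1, moves histones out of the way of polymerases. It was at 33.0, 32.3, 24.7 and 42.6 CPM in the 4 control and 64.7, 48.4, 78.4, 77.2 and 75.4 CPM in the 5 Pcbp2 βKO samples in high glucose (log2 fold change 1.05, standard error 0.17, adjusted p = 0.00212). In low glucose it was at 49.0, 43.7 and 35.6 CPM in the 3 control and 92.8, 67.8, 94.3, 88.7 and 98.9 CPM in the 5 Pcbp2 βKO samples (log2 fold change 1.05, standard error 0.19, adjusted p = 0.00429). The genotypes did not overlap at either concentration, and knockout replicate 5, the lowest for mitotic genes, was the third highest for Supt16 in high glucose. Nearly all of its TPM came from transcript Supt16-201. Its partner Ssrp1 was not called between the genotypes (log2 fold change 0.076, standard error 0.12, adjusted p = 0.88 in high glucose).

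Ccnb1ip1 was at 0.286, 0.0356, 0 and 0.147 CPM in control cells and 1.86, 0.947, 2.46, 1.88 and 2.71 CPM in Pcbp2 βKO cells in high glucose (log2 fold change 4.09, standard error 0.78, adjusted p = 0.00727). In low glucose control samples were at 0.648, 0.219 and 0.131 CPM and knockout samples at 1.75, 0.856, 2.81, 1.87 and 5.77 CPM (log2 fold change 2.97, standard error 0.78, adjusted p = 0.0562). These levels rest on 0 to 14 counts per control library and 59 to 211 per knockout library in high glucose. The groups did not overlap at either concentration. Ccnb1ip1 and Supt16 are the 2 members on chromosome 14 and lie in 1 interval of GRCm39, Ccnb1ip1 at chr14:51026696-51045263 (reverse strand) and Supt16 at chr14:52397870-52434920 (reverse strand), 1352606 bases apart. Of 108 annotated genes from the start of Ccnb1ip1 to the end of Supt16, 32 were tested. In high glucose 3 were called higher, the 2 members and Klhl33 (log2 fold change 1.25), and 2 lower, Rpgrip1 and Rpph1 (-1.58 and -1.60). Over all genes 0.29% were called higher and 1.42% lower. The 2 members set the ends of the interval, so their own calls in it follow from how it was chosen. In low glucose Ang and Rnase4 were called higher there besides Supt16 (1.63 and 1.196) and Gm26782 lower (-1.31), against 0.255% and 1.78% of all genes.

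Ncapd2 was at 12.5, 8.14, 5.63 and 6.94 CPM in control cells and 23.9, 16.9, 30.2, 11.1 and 14.0 CPM in Pcbp2 βKO cells in high glucose (log2 fold change 1.21, standard error 0.28, adjusted p = 0.029), with overlap through control replicate 1. Smc4 was at 14.3, 15.3, 10.4 and 14.3 CPM in control and 33.2, 25.3, 42.0, 19.5 and 15.3 CPM in Pcbp2 βKO samples (log2 fold change 0.99, standard error 0.23, adjusted p = 0.0321), and in low glucose at 20.2, 27.8 and 20.2 CPM in control and 30.7, 37.1, 27.9, 30.1 and 32.7 CPM in Pcbp2 βKO samples (log2 fold change 0.48, standard error 0.25, adjusted p = 0.448). Between the genotypes Smc4 overlapped in high glucose through control replicate 2 alone, and knockout replicate 5 was again the lowest of its group. Of 20 alternatives, the call in high glucose was lost under 9 for Ncapd2 and under 10 for Smc4. The other condensation genes had estimates of 0.95 (Smc2), 2.11 (Ncapg) and 2.27 (Top2a) and were not called.

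Cdkn2c was at 6.22, 6.70, 6.10 and 6.72 CPM in control cells and 21.4, 10.4, 23.0, 7.50 and 8.88 CPM in Pcbp2 βKO cells in high glucose (log2 fold change 1.14, standard error 0.28, adjusted p = 0.0433), and the groups did not overlap. It is an inhibitor of CDK4 and CDK6, and its highest samples, replicates 3 and 1, were those highest for Mki67. Its call was lost under 11 of 20 alternatives. The gene has 2 annotated protein-coding transcripts. Of these the longer, Cdkn2c-202, was at 0.719, 0.618, 0.825 and 0.620 TPM in control replicates 1 to 4 and 2.82, 1.56, 3.52, 0.889 and 0.532 TPM in Pcbp2 βKO replicates 1 to 5 in high glucose, while the shorter, Cdkn2c-201, was at 1.08, 2.15, 1.66 and 3.59 and 3.30, 2.01, 2.99, 2.42 and 3.85 TPM. The difference in replicates 1 to 3 was thus larger in the longer transcript. This split was chosen after the values had been seen and was not tested.

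**Figure D5:**
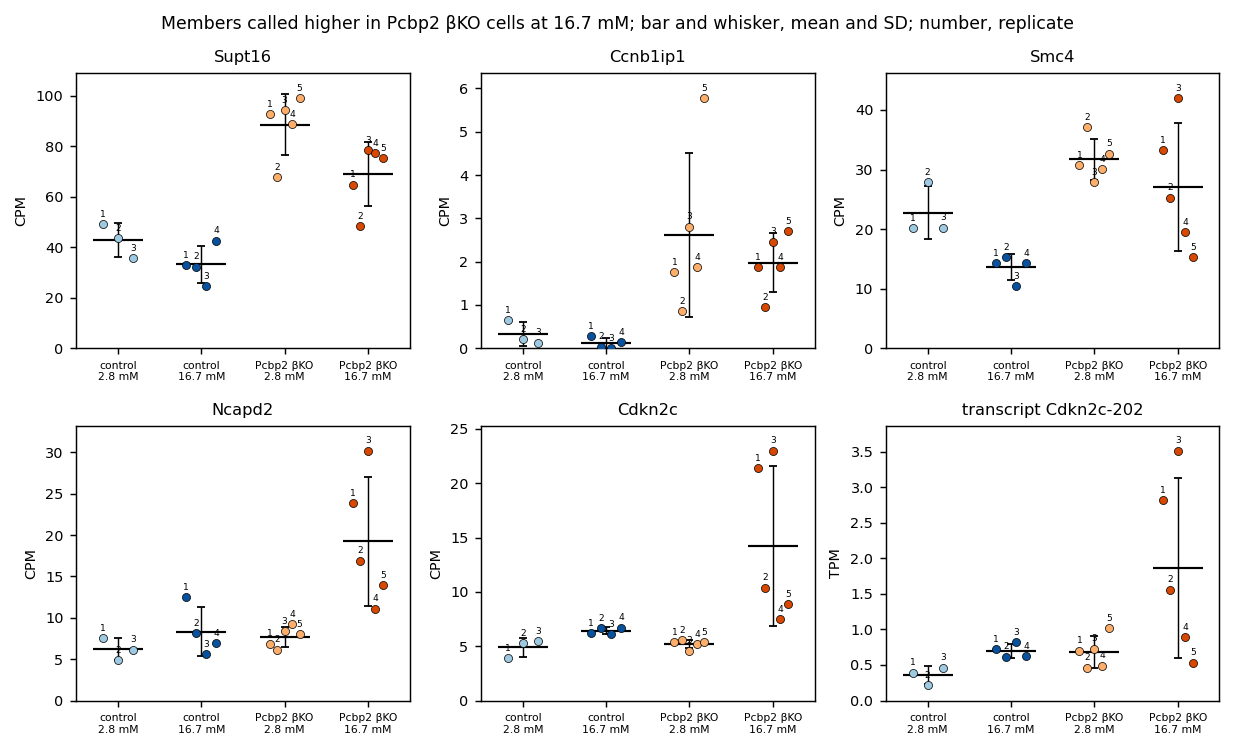
CPM of the 5 members called higher in Pcbp2 βKO cells at 16.7 mM, and TPM of transcript Cdkn2c-202, in each sample by group, with the replicate number, the group mean and SD. Supt16 and Ccnb1ip1 separate the genotypes at both concentrations, and for Ncapd2 and Cdkn2c replicates 1 to 3 of the knockout in high glucose are the highest samples.

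Cdkn1a showed the opposite pattern. In high glucose it was at 88.1, 83.9, 80.5 and 94.5 CPM in control cells and 41.8, 38.9, 30.2, 66.7 and 77.7 CPM in Pcbp2 βKO cells, with every knockout sample below every control sample and the 3 lowest in the replicates highest for Mki67. The difference did not pass over all genes (log2 fold change -0.76, standard error 0.27, adjusted p = 0.226), though it did without the 3 samples, as given above. The study, whose fit held a batch term, lists Cdkn1a among the transcripts decreased in the knockout in high glucose. Cdkn1a, Cdkn2c, Supt16 and Ccnb1ip1 were the members whose groups did not overlap in high glucose, 3 of them higher (against 1.85% of all genes).

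In low glucose, Supt16 was the only member called, against 0.255% of genes called higher and 1.78% lower, and the median log2 fold change was 0.27 (0.031 over all genes). Without control replicate 3 it was not called (adjusted p = 0.0528), and without Pcbp2 βKO replicate 2, 2 members were. In 6 members the groups did not overlap and the knockout was higher, namely Supt16, Ccnb1ip1, Ccne2, Ccnb2, Tk1 and Smc4 (against 4.06% of all genes), and E2f1 was lower without overlap (-0.41, adjusted p = 0.541). Mki67 was at 0.914, 0.503 and 0.328 CPM in control and 1.24, 0.551, 0.636, 1.25 and 0.360 CPM in Pcbp2 βKO cells, and the 16 mitotic and spindle members together at 18.5, 22.3 and 16.8 and 18.6, 20.2, 19.5, 31.7 and 24.0 CPM. In these sums the ranges overlapped, with knockout replicate 4 the highest.

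Whether glucose acted differently in the 2 genotypes was tested with the interaction term. No member was called, against 0.00439% of all genes (1 gene), and every member had an adjusted p of 1. The difference between the glucose effects was above 0 in 56 of the 60 members, with a median of 0.91 on the log2 scale against -0.0088 for all genes, while an unadjusted p under 0.05 was reached by 4 members, against 4.57% of all genes. These 4 were Cdkn2c (interaction 1.05, unadjusted p = 0.018), Rfc3 (0.52, 0.028), Ncapd2 (0.89, 0.0385) and Nsl1 (1.53, 0.04). The larger number of calls with glucose in Pcbp2 βKO cells than in control cells was therefore not shown to be a difference between the genotypes. For Mki67 the interaction was 1.66 with a standard error of 1.28.

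Other genes of the pathway were taken from 4 lists apart from the 60 members. Of 60 further genes of mitosis, 4 were called higher with glucose in control cells and none lower, with the highest log2 fold changes for Depdc1a, Troap and Hmmr (5.22, 4.44 and 3.00), and 52 in Pcbp2 βKO cells, led by Depdc1a, Pbk and Aspm (5.42, 5.32 and 4.71), against the 7.15% and 13.4% of all genes given above. Only Pttg1, the securin gene, was lower there (-0.76). Between the genotypes in high glucose none of the 60 was called, although 48 had an unadjusted p under 0.05 by edgeR (12.1% of all genes). Of 46 further genes of replication and repair, 1 was called higher (Dnmt1, 0.73) and 5 lower with glucose in control cells (the lowest being Rfc4, Gins4 and Lig1 at -1.01, -0.99 and -0.99), and 18 higher and 1 lower (Gins4, -0.98) in Pcbp2 βKO cells. The highest of these were Clspn, Uhrf1 and Dscc1 (3.61, 3.17 and 2.76).

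Of 31 tested genes of cell cycle control, 4 were called higher and 3 lower with glucose in control cells and 6 and 5 in Pcbp2 βKO cells. Over all genes these shares were 7.15% and 6.69% in control and 13.4% and 10.4% in Pcbp2 βKO cells, so the list stood near the background. E2f2, an activating E2F, was among those higher in both (1.74 and 2.85), as were the antiproliferative gene Btg2 (1.59 and 1.36) and Cdk2ap1 (1.08 and 1.12), while Mybl2, which encodes B-Myb, was called in Pcbp2 βKO cells (1.64). Myc, the growth-promoting factor, was among those lower in both (-1.72 and -2.16), with Ccng1 (-1.18 and -1.49), and Cdkn1c, which encodes the inhibitor p57, was lower in Pcbp2 βKO cells (-2.35). Wee1, an inhibitory kinase of CDK1, was lower in both (-0.75 and -0.71). Lin9, a subunit of the complex that activates mitotic genes with B-Myb, was the only gene of this list called between the genotypes, higher in the knockout in high glucose (0.98). Of 20 targets of p53, to which Cdkn1a also belongs, 9 were lower and 1 (Btg2) higher with glucose in control cells, and 10 lower and 1 higher in Pcbp2 βKO cells (6.69% and 10.4% of all genes were lower). The lowest were Phlda3, Trp53inp1 and Dcxr in control cells (-2.05, -1.73 and -1.69) and Eda2r, Trp53inp1 and Phlda3 in Pcbp2 βKO cells (-2.04, -2.01 and -1.83). None of the 20 was called between the genotypes at either concentration, where 1 in low and 2 in high glucose had an unadjusted p under 0.05 by edgeR.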

How the data were processed

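RNA was measured in 17 samples of sorted β cells. The authors quantified transcripts with kallisto against mm39 (tools and build per the labels, versions not given in the sources used here) and deposited estimated counts and TPM for 142376 transcripts in each sample. For each gene the estimated counts of its transcripts were added up and rounded, and genes were kept by filterByExpr. These sums include transcripts not annotated as protein-coding. By the median over samples, the protein-coding share of TPM was lowest for Tyms (15.0%), Tk1 (25.0%), Mcm10 (30.7%) and Trip13 (35.6%). Smc2 (45.1%), Top2a (46.0%) and Ndc80 (49.0%) came next. Group means were fitted over all 17 samples in edgeR 4.0.16 (R 4.3.3) with TMM factors and the quasi-likelihood F test, with Benjamini-Hochberg adjustment over all 22784 genes kept. Calls needed an adjusted p below 0.05 together with a change above 1.5-fold. The study's batch term has no levels in the sources used here and was not fitted. TPM were summed per gene and used for levels between genes, and for the limma 3.58.1 and DESeq2 1.42.0 fits among the alternatives the units were TPM and counts. The fits were tested on simulated data.

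Members and lists were chosen with earlier results of these data known. Every member is named, and values of single samples are given for those called in any comparison and for Mki67, Top2a, Cdk1, Pcna, Mcm2 and the D-type cyclins, with the samples in low glucose of Pcbp2 βKO cells as a range for most. Up to 3 called genes per direction are named from each further list, by log2 fold change. Replicate numbers were taken to pair the control samples, since the deviations from the group means of same-numbered samples in low and high glucose correlated at 0.20, 0.12 and 0.26. These correlations are small, and the pairing is an assumption. The pairs that involve Pcbp2 βKO samples did not all exceed 0.1. What a replicate number stands for is not given in the labels.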

Additional observations from a re-analysis of the deposited data

Results flagged for a closer look

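Of 180 combinations of a member and a group of 4 or 5 samples, 5 held a sample whose gap to the others exceeded Dixon's limit, where chance gives about 1 in 20. In low glucose, Pcbp2 βKO replicate 2 was the lowest of its group for Ccnd2 at 583.1 CPM and for Supt16 at 67.8 CPM. Pcbp2 βKO replicate 3 was the lowest for Ccnd3 at 54.9 CPM, and replicate 4 the highest for Prc1 at 4.20 CPM. In high glucose, Pcbp2 βKO replicate 5 was the lowest for Bub1 at 0.0128 CPM.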

How the results depend on the processing

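The number of members called with glucose in control cells was 7 and became 13 by total counts, 16 without the low-count filter, 16 by DESeq2, 13 by limma on log2(TPM + 1), 15 on log2(TPM + 0.1), 17 with the replicate block, 16 with only the groups compared, 37 with the replicate block within 1 genotype and 33 without the 3 samples named above (control replicate 4 and Pcbp2 βKO replicates 4 and 5 in high glucose), a setting added after seeing the data. The 13 and 15 members of the 2 limma fits in control cells were all lower. Over all genes, these fits called 250 and 442 higher and 6725 and 8460 lower. With glucose in Pcbp2 βKO cells the total stayed within 1.5 times of 42 in every setting, but the split by direction shifted. It was 39 higher and 3 lower in the main fit, and 33 and 9 by total counts. On the 2 TPM scales it was 20 and 15 and then 17 and 16. Over all genes 345 and 656 were higher and 8486 and 11793 lower on these scales. The median log2 fold change of the members fell there to 0.17 and 0.28. There the direction turned for Cdk2 (-0.075 and -0.17), Cdkn2c (-0.0598 and -0.076), E2f1 (-0.29 and -0.33) and Mcm6 (-0.18 and -0.22), and for Ccne1 (-0.071) with the smaller pseudocount. For the knockout in low glucose the count was 1, and 2 without the filter, with the 1 CPM filter, by DESeq2, on both TPM scales and with the replicate block. For the knockout in high glucose the count was 5, and 10 without the filter, 8 by DESeq2, 0 and 2 on the TPM scales, 3 with length-scaled counts, 8 with the replicate block, 2 with only the groups compared and 26 without the 3 samples. With glucose in control cells the 1 CPM filter gave 10, and the settings that are not named for a comparison changed its count by no more than 1.5 times. The cause was not tested.

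Leaving out 1 sample at a time gave 4 to 13 members called with glucose in control cells, 37 to 48 in Pcbp2 βKO cells, 0 to 2 for the knockout in low glucose, 2 to 19 in high glucose and 0 for the interaction, with medians of 0.54 to 1.096, 1.26 to 1.90, 0.15 to 0.32, 1.01 to 1.60 and 0.67 to 1.197. The interaction had 0 calls in every setting, DESeq2 included. Over all groups the median correlation was 0.096 over 22 same-numbered pairs, those of the control samples included, and -0.015 over 85 others. Same-numbered pairs that involve Pcbp2 βKO samples ranged from -0.0072 to 0.35, the highest being replicate 4 of both genotypes in high glucose. Whether the numbers pair samples outside the control cells is not known. The block moved the count in Pcbp2 βKO cells from 42 to 38. With it, Cdkn1a was called lower in the knockout in high glucose (log2 fold change -1.04, edgeR adjusted p = 0.00121), with Ccne2, Bub1 and Kif11 higher, while Cdkn2c was not called. In 8 of the 16 mitotic and spindle members at least 1 of the 8 low-glucose libraries held fewer than 50 counts, which limits the precision of their fold changes with glucose.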
